A study of Mus musculus with 2 samples.

Results

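The 8 genes examined here encode the ephrins, the membrane-bound ligands of the Eph receptor tyrosine kinases. They are Efna1 to Efna5, for the ephrin-A proteins, and Efnb1 to Efnb3, for the ephrin-B proteins. They were chosen by gene name, by a rule that uses no measured value, and are 8 of 21668 protein-coding genes with at least 1 annotated transcription start site (TSS) on chromosomes 1 to 19 and X. The assay was DNase-seq, which digests nuclei with DNase I and sequences the ends it leaves, so that open chromatin gives many cuts. The tissue was the midbrain of B6NCrl mouse embryos at embryonic day 11.5, with both sexes pooled, in 1 group of 2 biological replicates. There was no treated, mutant or second-tissue group, so the values below are levels in each replicate and carry no test.

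Ephrin-A proteins are tied to the membrane by a lipid anchor and bind mainly EphA receptors, whereas ephrin-B proteins span the membrane and bind mainly EphB receptors. Contact between a ligand on one cell and a receptor on another often repels the growing axon, and ligand-bearing cells can also receive a signal. In the dorsal midbrain, the tectum or superior colliculus, graded ephrin-A2 and ephrin-A5 guide axons from the retina to their places along the anterior to posterior axis. The homeodomain proteins Engrailed-1 and Engrailed-2 act upstream of these gradients in the chick tectum. Ephrin-B2 also marks arteries, and ephrin-B1, encoded on the X chromosome, acts in skull and craniofacial development.

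The deposited peak lists held 306572 peaks in replicate 1 and 455245 in replicate 2, with median signals of 18 and 8, and read depth is unknown. The signal of a peak is the authors' own value with no stated normalization, so each was ranked within its own list, as a percentile. Pairs of signals below are those of replicate 1, then replicate 2. All 6 midbrain marker genes had a TSS peak in replicate 2 and 5 of them in replicate 1, where Lmx1b had none. All 4 neural progenitor and all 4 neuronal genes had one in both replicates, as did 65.5% of all protein-coding genes. Of markers of other cells, 1 of 7 endothelial genes (Kdr), 0 of 6 erythroid, 0 of 3 microglial, 3 of 5 mesenchymal and 3 of 3 hindbrain genes had a TSS peak in both replicates. Of the other endothelial genes, Pecam1 had a TSS peak in replicate 1 only, with a signal of 12, Erg in replicate 2 only, with 28, and Cdh5, Tie1, Tek and Emcn in neither. The part of other cell types in the ephrin values was not tested. In whole tissue, a site open in few cells and a site weakly open in many cells cannot be told apart.

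On build mm10, Efna1 (ENSMUSG00000027954.9) lies at chr3:89271733-89281142, Efna3 (ENSMUSG00000028039.11) at chr3:89313899-89322965 and Efna4 (ENSMUSG00000028040.7) at chr3:89333390-89338028, all on the minus strand. Efna2 (ENSMUSG00000003070.6) lies at chr10:80179482-80190010 on the plus strand, and Efna5 (ENSMUSG00000048915.12) at chr17:62604184-62881317 on the minus strand. Efnb1 (ENSMUSG00000031217.8) lies at chrX:99136130-99148991 on the plus strand. Efnb2 (ENSMUSG00000001300.16) lies at chr8:8617434-8661242 and Efnb3 (ENSMUSG00000003934.5) at chr11:69554092-69560205, both on the minus strand.

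The promoters of 4 genes are shown first. Efnb2 had the strongest, Efna2 and Efna5 encode the graded tectal ligands, and at Efna4 the peak of replicate 2 lay only downstream of the TSS. Each line gives the 250 bases before the RefSeq TSS on build GRCm38.p6, written 5′ to 3′ on the strand of the gene. Capitals mark GGGCGG or its complement CCGCCC, the letters of the GC box bound by SP and KLF family factors.
Efnb2, chr8:8661243-8661492, minus strand: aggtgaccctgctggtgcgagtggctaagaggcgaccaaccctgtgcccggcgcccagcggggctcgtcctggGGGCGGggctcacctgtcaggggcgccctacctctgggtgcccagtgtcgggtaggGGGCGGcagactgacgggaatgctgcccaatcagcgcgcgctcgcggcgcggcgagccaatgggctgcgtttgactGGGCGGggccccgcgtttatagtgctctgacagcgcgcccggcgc
Efna2, chr10:80179232-80179481, plus strand: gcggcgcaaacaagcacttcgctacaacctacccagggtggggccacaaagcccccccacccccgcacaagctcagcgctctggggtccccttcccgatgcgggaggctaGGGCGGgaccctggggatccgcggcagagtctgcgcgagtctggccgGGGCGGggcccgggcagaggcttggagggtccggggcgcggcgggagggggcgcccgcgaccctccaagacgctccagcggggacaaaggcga
Efna5, chr17:62881318-62881567, minus strand: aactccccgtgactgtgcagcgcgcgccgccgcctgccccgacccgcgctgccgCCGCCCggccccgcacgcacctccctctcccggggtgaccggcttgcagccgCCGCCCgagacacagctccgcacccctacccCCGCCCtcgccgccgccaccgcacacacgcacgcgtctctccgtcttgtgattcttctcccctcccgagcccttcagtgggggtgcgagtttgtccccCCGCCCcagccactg
Efna4, chr3:89338029-89338278, minus strand: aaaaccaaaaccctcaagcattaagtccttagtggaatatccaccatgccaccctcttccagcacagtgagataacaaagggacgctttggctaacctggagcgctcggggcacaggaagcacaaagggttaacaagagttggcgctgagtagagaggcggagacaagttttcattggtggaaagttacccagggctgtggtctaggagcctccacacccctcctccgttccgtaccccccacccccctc
Efnb2 had 3 such hexamers in these bases, Efna2 had 2, Efna5 had 4 and Efna4 had 0. The RefSeq table held 9 promoter windows for 7 of the genes, all but Efnb3, each running from 250 bases before to 50 after the TSS. GGGCGG occurred in 7 of the 9 windows, against 35.7% of all 32851 windows of that length. Efna1 and Efna3 gave 2 windows each. The GC content of the 9 ran from 55.7% to 74.7%, and no share matched for GC content was computed. The TAATTA core was found in 1 of the 9, an Efna1 window, and the OTX, E-box and SOX words described further on in 0 of 9. A match describes the sequence and does not show that a factor was bound.

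All 8 ephrin genes had a peak within 500 bp of a TSS in both replicates. Among all protein-coding genes the share was 65.5%. The GC content within 500 bp of the TSS had a median of 63.7% over the ephrins, against 55.3% over all genes. Among the 7210 genes with GC content and CpG ratio (observed over expected) at or above the lowest values in the family, a comparison chosen after the values were seen, 98.6% had such peaks. The count of 8 of 8 is thus near the background for genes of this sequence type. The ephrin promoters differed in the strength of their peaks.

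Efnb2 had the strongest TSS peak of the family in both replicates. Its signal was 130 in replicate 1 and 99 in replicate 2, at percentiles of 82.3 and 98.2 among genes with a TSS peak. The other 7 genes lay between signals of 76 and 108 in replicate 1 and between 54 and 70 in replicate 2, so none of them reached the Efnb2 values. The median gene with a TSS peak had signals of 112 and 68. Efnb2 was thus the 1 ephrin gene above the median gene in both replicates, while 43.6% of all genes with a TSS peak in both were.

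Among the ephrin-A genes, Efna2 had TSS signals of 100 in replicate 1 and 65 in replicate 2, Efna3 had 96 and 70, and Efna4 had 93 and 64. Efna5 had 86 and 61, and Efna1 had 76 and 64. The mean percentiles of these 5 genes ran from 33.1 for Efna1 to 43.6 for Efna3. Their order was not the same in the replicates, since Efna2 ranked above Efna3 in replicate 1 and below it in replicate 2.

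Of the other ephrin-B genes, Efnb3 had 100 in replicate 1 and 62 in replicate 2. Efnb1 had 108 and 54. It ranked second in the family by signal in replicate 1 and last in replicate 2. By mean percentile the family ran Efnb2 (90.3), Efna3 (43.6), Efna2 (41.0), Efnb3 (38.5), Efna4 (37.5), Efnb1 (37.3), Efna5 (33.3) and Efna1 (33.1). The percentiles of the 2 replicates of Efnb2 lay above those of every other ephrin, whereas every pair of neighbours among the other 7 had overlapping ranges.

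**Figure D1:**
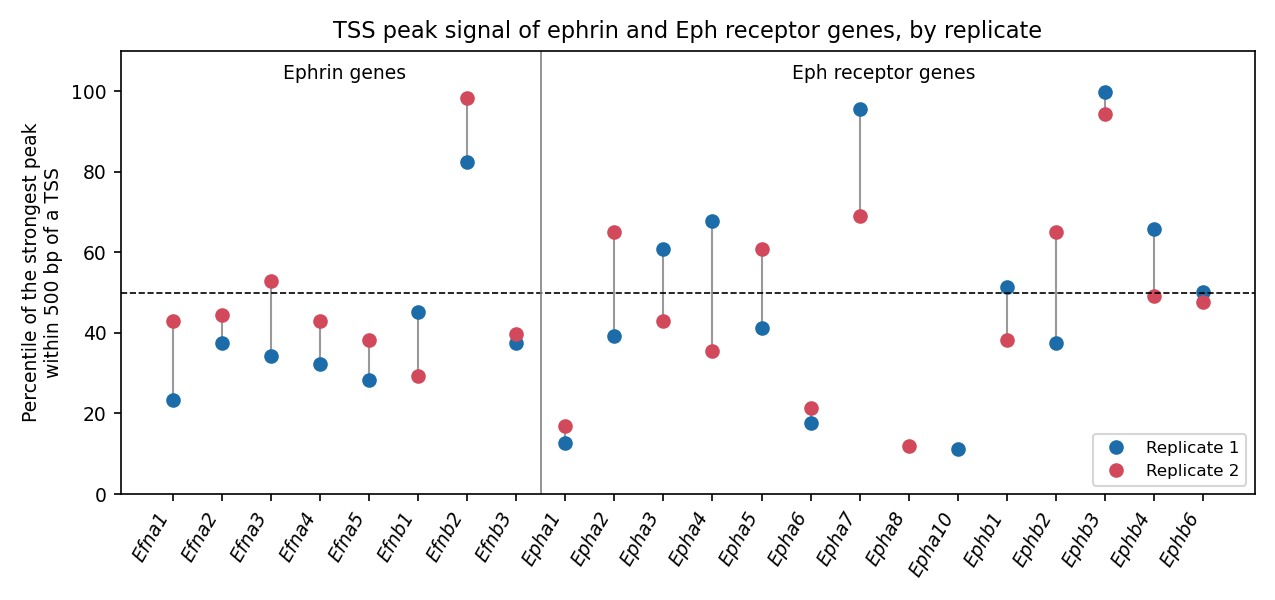
Percentile, among all genes with a TSS peak in the same replicate, of the strongest peak within 500 bp of a TSS, for the 8 ephrin genes (left) and 14 Eph receptor genes (right). Points are replicates, grey lines join them, and the dashed line is the midpoint of 50; Efnb2 is the ephrin gene with both points above it.

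The place of the peaks around the TSS also differed. At Efna5 replicate 1 had peaks centred at -233.5 bp from the most 5′ TSS and 253.5 bp downstream of the other, each with a signal of 86. Replicate 2 had 3 peaks within this window, with signals of 59, 56 and 61. At Efna4 replicate 1 had peaks with signals of 93 at -62.5 bp, 89 at 237.5 bp and 35 at -382.5 bp, while the only peak of replicate 2 lay 297.5 bp downstream with a signal of 64. With a window of 150 bp, Efna4 and Efna5 were the 2 genes no longer called in both replicates. Efna1 has promoters 1501 bp apart. The downstream promoter had signals of 76 and 64, and the upstream one 46 in replicate 1 and 48 in replicate 2, so the downstream promoter was the stronger in both.

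Among the ephrin TSSs, hotspots, the broader regions of elevated cutting in the deposited lists, were widest at Efna5 and Efnb2 in both replicates. The hotspot at the Efna5 TSS was 5098 bp wide in replicate 1 and 5480 bp in replicate 2, at percentiles of 99.9 and 98.7 among TSS hotspots. That of Efnb2 was 2858 and 4206 bp wide, at percentiles of 98.2 and 97.1. The median TSS hotspot was 1000 bp wide in replicate 1 and 1511 bp in replicate 2. Those of Efna2 (814 and 1534 bp) and Efna4 (824 and 1393 bp) lay near that width. That of Efna1 was 1022 bp in replicate 1 and 3838 bp in replicate 2, at percentiles of 51.7 and 96.0. That of Efna3 was 621 and 2325 bp, so at both genes it was wider in replicate 2. Efnb1 had 2189 and 1998 bp, at percentiles of 94.2 and 73.0, and Efnb3 had 856 and 1808 bp. All 8 TSS hotspots were at the ceiling of 100 on the −log10 q-value scale in both replicates, as were those of 59.2% of all genes.

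**Figure D2:**
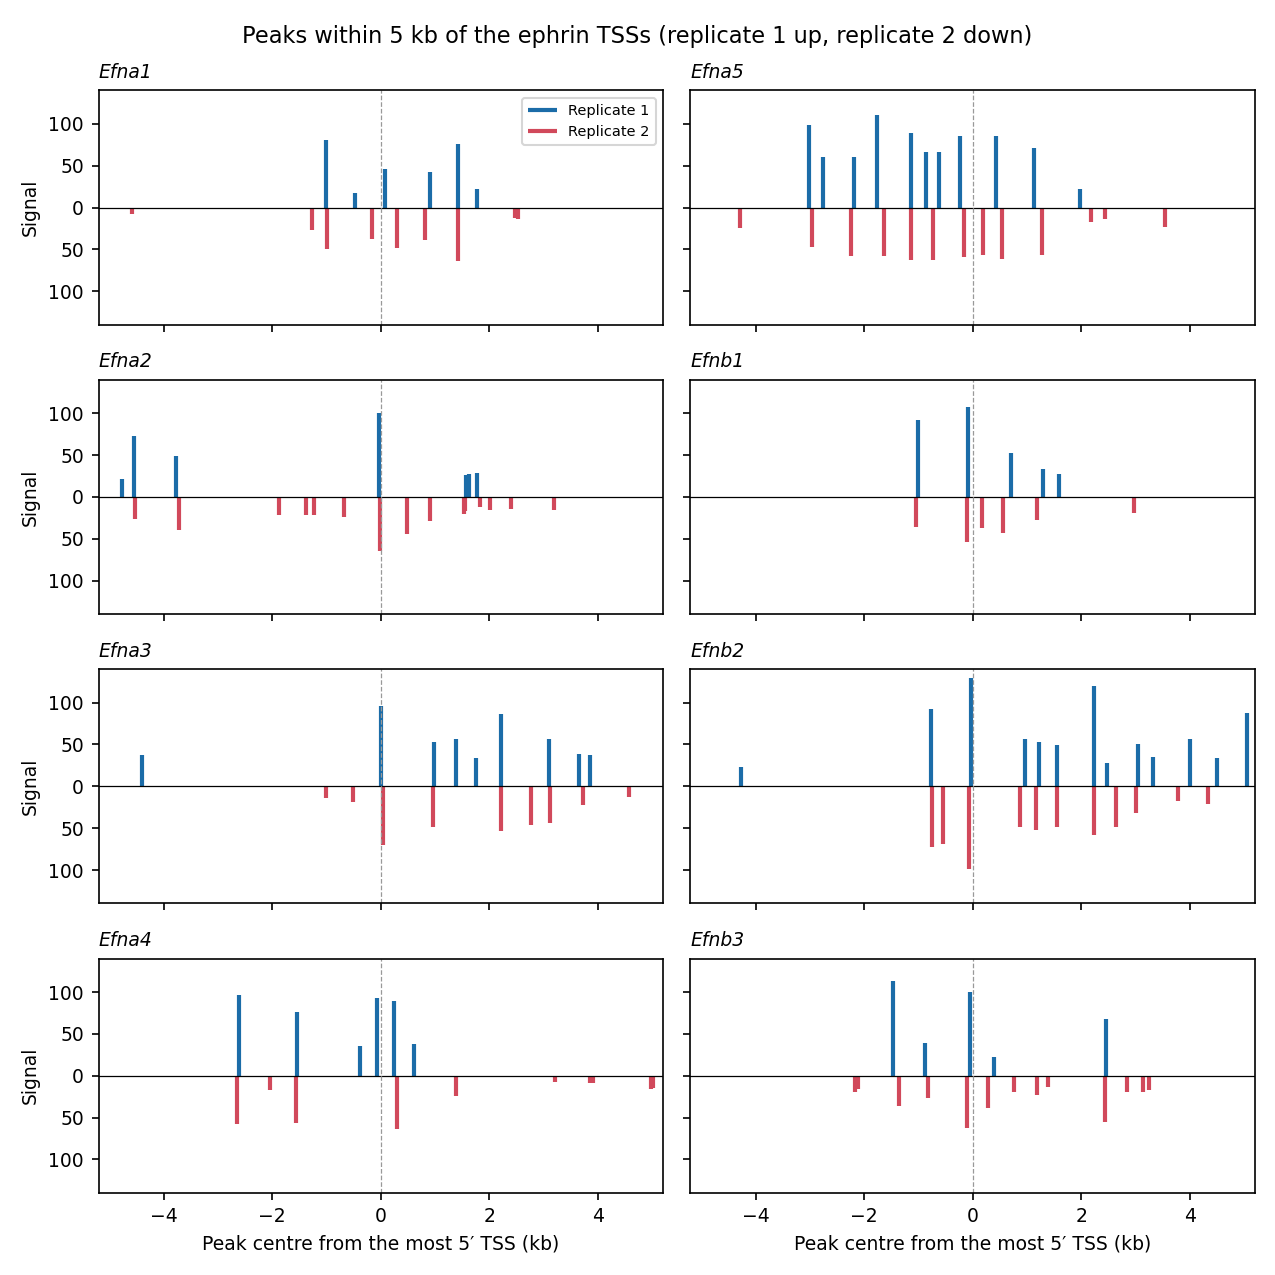
Deposited signal of every peak within 5 kb of the most 5′ TSS of each ephrin gene, by distance of the peak centre along the direction of transcription, with replicate 1 drawn upward and replicate 2 downward. Efna5 holds a row of peaks from the TSS to about 3 kb upstream in both replicates, and Efnb2 and Efna3 each hold a row of peaks inside the gene.

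Beyond promoters, the genes fell into loci of different kinds. A span was the gene with 100 kb on either side, and peaks of both replicates that overlapped by at least 1 bp were joined into a shared site. After overlapping peaks were joined, the 8 spans held 665 regions, of which 194 (29.2%) were shared, against 15.4% of regions genome-wide. Of the 194, 56 lay within 500 bp of a protein-coding TSS and 138 outside promoters. By position, 15 (10.9%) of the 138 lay in exons, 64 (46.4%) in introns and 59 (42.8%) between genes, against 5.76%, 43.8% and 50.4% of all such sites. The 138 sites had median signals of 61 in replicate 1 and 35 in replicate 2, against 42 and 22 for all 72670 shared sites outside promoters. Of replicate 1 peaks in the spans, 53.5% were part of a shared region, against 31.1% of all its peaks. In replicate 2 the shares were 37.5% and 22.3%. Every span is centred on a gene, and the genome-wide values were not matched for gene density or distance to a TSS.

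All 8 spans held more shared sites outside promoters than the median gene's 9, as did 46.5% of all genes. The spans of Efna1, Efna3 and Efna4 overlap and share most of their sites. The counts were 33 for Efna3, 31 for Efna2, 30 for Efna1, 28 for Efna4, 21 for Efna5, 20 each for Efnb2 and Efnb3, and 10 for Efnb1. Per 100 kb of span they ran from 15.8 at Efna3 to 4.40 at Efna5, whose gene is 277 kb long, against a median of 3.63 over all genes. Efnb1, with the fewest, is the family's X-linked gene, present as 1 copy in the male cells of each pool; the part of copy number in its count was not tested.

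Efna5, Efnb1 and Efnb2 lie apart from other genes, with 0, 1 and 1 other protein-coding genes in their spans, against a median of 4 over all genes. Of the 51 shared sites around these 3 genes, 48 (94.1%) had the ephrin TSS as the nearest protein-coding TSS. That was so for 21 of 21 at Efna5, 10 of 10 at Efnb1 and 17 of 20 at Efnb2. The other 5 genes lie among 8 to 17 others, and 22 of 87 sites there (25.3%) had an ephrin TSS nearest. The nearest TSS is a label of position and does not show which gene a site acts on.

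**Figure D3:**
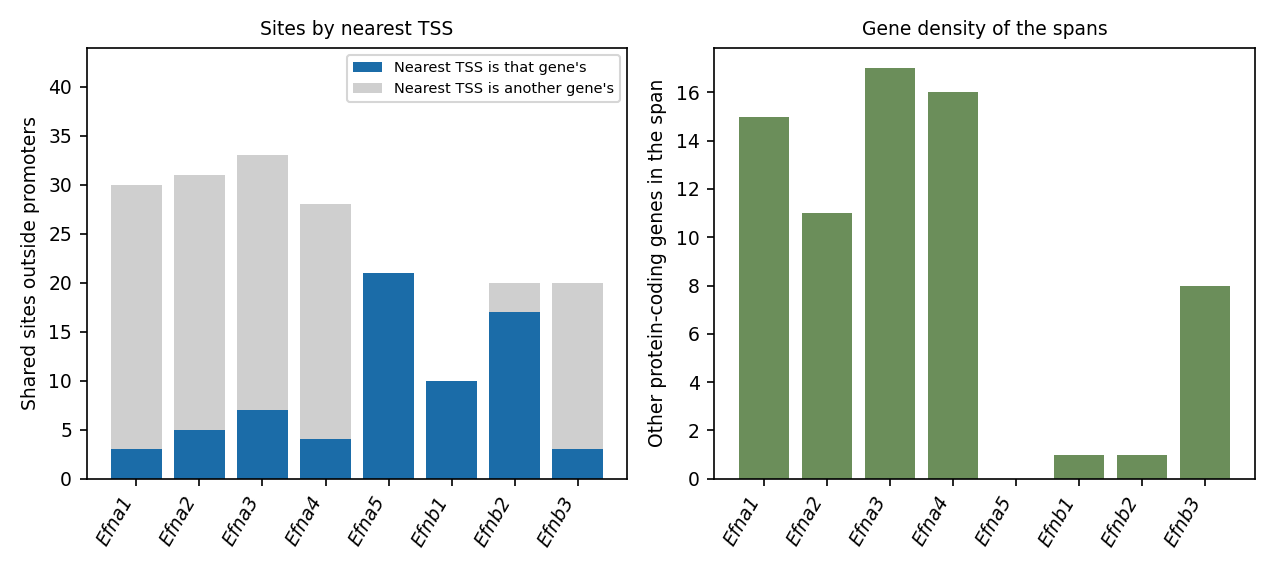
Left, number of shared sites outside promoters in the span of each ephrin gene, split by whether the nearest protein-coding TSS is that gene's; right, number of other protein-coding genes in the span. The blue part fills the bar at Efna5 and Efnb1, and nearly so at Efnb2, the genes with at most 1 other gene in the span.

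Sequences of sites from 6 genes follow. They comprise a site among the strongest 3 of each span and, for Efna5, also its strongest intronic one. All are whole shared sites on build GRCm38.p6, written 5′ to 3′ on the strand of the ephrin gene, and distances are from the midpoint of the site to the nearest TSS of that gene. Capitals mark TAATTA (the core bound by many homeodomain proteins, Engrailed among them), CAGCTG (an E-box), CATTGT or ACAATG (SOX factors), GGGCGG or CCGCCC (GC box) and a match to the core of the CTCF motif, added to the search after these sequences had been seen.
Efnb2 intron 1, chr8:8658936-8659085, minus strand: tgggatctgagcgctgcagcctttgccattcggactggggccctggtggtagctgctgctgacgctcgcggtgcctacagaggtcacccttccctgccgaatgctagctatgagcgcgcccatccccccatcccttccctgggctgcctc
Efna5 upstream, chr17:62882876-62883145, minus strand: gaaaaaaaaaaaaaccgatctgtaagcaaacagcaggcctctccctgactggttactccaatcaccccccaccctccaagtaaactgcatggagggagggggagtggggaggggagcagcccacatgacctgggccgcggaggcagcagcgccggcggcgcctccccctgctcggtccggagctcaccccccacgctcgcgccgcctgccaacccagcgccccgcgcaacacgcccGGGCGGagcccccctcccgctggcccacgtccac
Efna5 intron 1, chr17:62784076-62784245, minus strand: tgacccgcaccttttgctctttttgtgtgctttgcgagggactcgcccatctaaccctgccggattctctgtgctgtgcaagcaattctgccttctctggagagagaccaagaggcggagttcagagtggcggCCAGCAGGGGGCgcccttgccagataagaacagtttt
Efna2 upstream, chr10:80159816-80160065, plus strand: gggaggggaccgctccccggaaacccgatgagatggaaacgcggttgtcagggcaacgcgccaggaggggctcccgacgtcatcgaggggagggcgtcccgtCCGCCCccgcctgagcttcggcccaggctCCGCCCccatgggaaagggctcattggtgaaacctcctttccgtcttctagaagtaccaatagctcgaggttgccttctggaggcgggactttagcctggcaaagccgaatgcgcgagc
Efna3 intron 1, chr3:89316936-89317105, minus strand: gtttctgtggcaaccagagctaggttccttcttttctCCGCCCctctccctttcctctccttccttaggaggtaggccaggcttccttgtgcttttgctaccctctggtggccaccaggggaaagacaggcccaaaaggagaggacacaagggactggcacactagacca
Efnb1 downstream, chrX:99199216-99199405, plus strand: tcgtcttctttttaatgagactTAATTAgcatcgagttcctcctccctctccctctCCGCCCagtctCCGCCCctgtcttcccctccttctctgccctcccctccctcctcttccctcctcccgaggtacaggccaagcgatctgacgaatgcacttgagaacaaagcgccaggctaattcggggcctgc
Efnb3 downstream, chr11:69553076-69553245, minus strand: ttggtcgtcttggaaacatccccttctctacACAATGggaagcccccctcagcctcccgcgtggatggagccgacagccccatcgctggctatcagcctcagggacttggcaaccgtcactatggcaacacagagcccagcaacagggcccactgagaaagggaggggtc
At least 1 of these words occurred in each site except that of Efnb2. The Efna5 intron site holds the 1 CTCF-like match in the central 150 bp of the 21 shared sites of that gene.

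Efna5, whose product is one of the graded tectal ligands, had its strongest sites just upstream of the promoter and weaker ones spread through a very long first intron. The site 1.7 kb upstream, shown above, had signals of 111 in replicate 1 and 58 in replicate 2. Sites 1.1 kb and 3.0 kb upstream had 89 and 63, and 99 and 47. In all, 5 shared sites lay between 0.7 and 3.0 kb upstream. No other protein-coding gene was counted in its span. Inside the gene lay 14 shared sites, 12 of them in intron 1 and 2 in intron 2 of the 5-exon transcript Efna5-201.

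The strongest of the intronic sites of Efna5 was that at 97.0 kb from the TSS, with signals of 70 in replicate 1 and 54 in replicate 2, at percentiles that averaged 92.7 within the lists. It was the first of a group of 3 between 96.1 and 97.0 kb, the others having 22 and 19, and 35 and 34. A pair lay at 27.7 and 27.1 kb, with 62 and 48, and 34 and 26. The 5 sites beyond 150 kb had signals from 18 to 65 in replicate 1 and from 13 to 21 in replicate 2. Of the regions outside promoters in this long span, 58 were seen in replicate 1 only and 66 in replicate 2 only, so most of them were not shared. Genome-wide most regions were not shared either, with 15.4% shared when promoters are included.

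Efnb2, the arterial and neural ephrin-B, combined the strongest promoter with a dense first intron. Of its 20 shared sites, 11 lay in the gene, 9 of them in intron 1 and 2 in the last exon, exon 5. In intron 1, 8 of the 9 lay within 7.3 kb of the TSS. The site at 2.2 kb had signals of 120 in replicate 1 and 58 in replicate 2, and that 0.8 kb upstream of the TSS had 93 and 72. Downstream of the gene, a site 86.1 kb from the TSS had 99 and 52, the strongest of 5 there. Of the 20, 3 lay nearest to Arglu1, the only other gene in the span.

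Efnb1 had the fewest sites of the family, with its strongest far downstream of the gene. The site 63.2 kb from the TSS had signals of 101 in replicate 1 and 40 in replicate 2, and that at 80.8 kb had 54 and 46. A site 1.0 kb upstream of the promoter had 92 and 36. Inside the gene, sites in exon 1 and intron 1 had signals from 34 to 53 in replicate 1 and from 18 to 43 in replicate 2. All 10 sites had Efnb1 as the nearest TSS, and 5 of them lay within 10 kb of it.

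**Figure D4:**
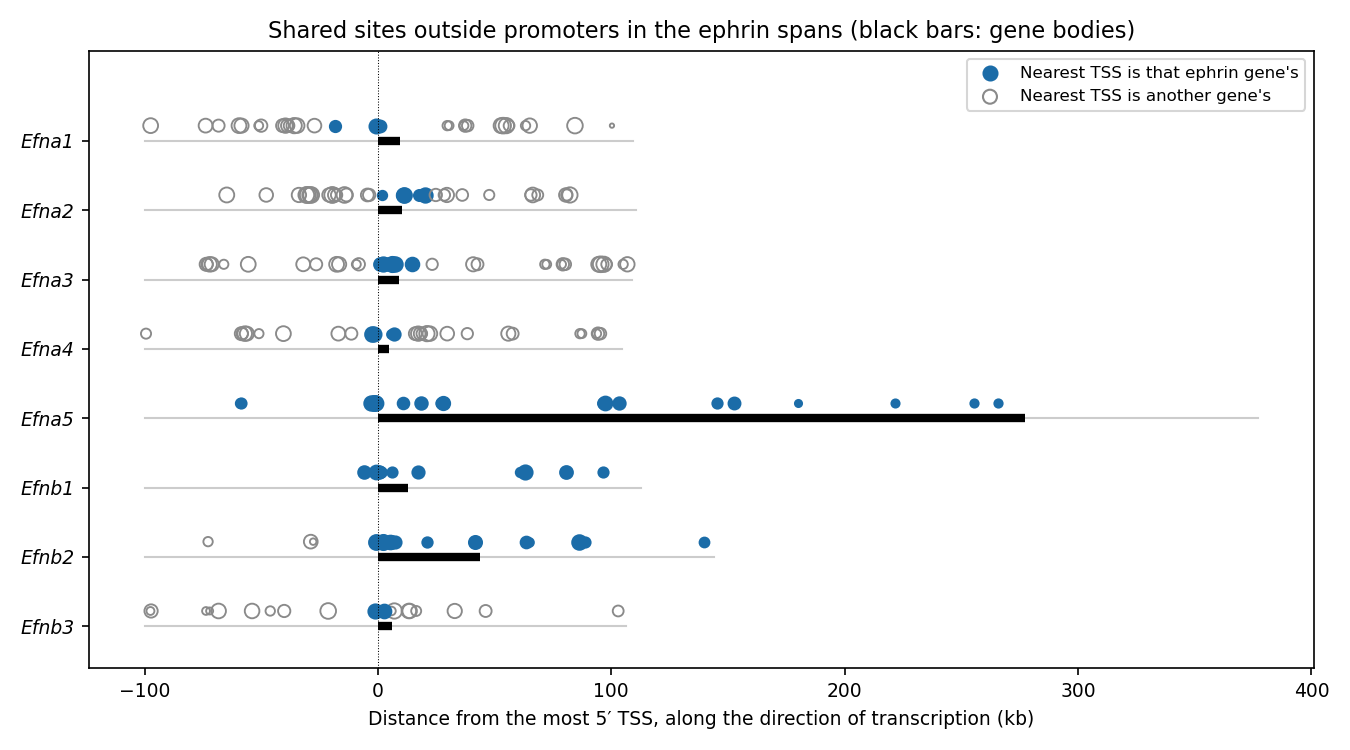
Shared sites outside promoters in each span, by distance from the most 5′ TSS along the direction of transcription; black bars are gene bodies, and circle area grows with the mean percentile of the site's signal in both lists. Filled circles run through the Efna5 body and cluster at the start of Efnb2, while open circles, nearest to another gene, make up most of the rest.

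Efna1, Efna3 and Efna4 form a cluster of 66.3 kb on chromosome 3, so their spans overlap and share sites. Together the 3 spans held 36 shared sites outside promoters, of which 33 lay in more than 1 span and 14 had an ephrin TSS nearest. Of these 3 genes Efna3 held the most within its own body, 6, of which 5 lay in intron 1 of transcript Efna3-201 and 1 in intron 4. The site 0.9 kb from the TSS, with signals of 53 and 48, overlaps 1 of the RefSeq promoter windows of Efna3 and is counted outside promoters because the GENCODE TSSs used here lie farther away. The site 5.9 kb from its TSS had signals of 112 in replicate 1 and 69 in replicate 2, and those at 7.1 kb and 2.1 kb had 87 and 58, and 86 and 53. Efna1 had a single site in its body, with 43 and 39, and Efna4 had none. Upstream of Efna4, sites at 2.6 and 1.6 kb lay in introns of the neighbouring gene Adam15, which encodes a membrane metalloprotease, with 97 and 58, and 76 and 56.

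Several of the strongest sites in these spans lay nearest to other genes. The strongest of the Efna1 and Efna3 spans, with signals of 126 in replicate 1 and 83 in replicate 2, lay 52.2 kb from the Efna1 TSS and 1577 bp from that of Muc1, an epithelial mucin gene. The third in the Efna3 span, in introns of Mtx1 and Thbs3 and nearest to Muc1, had 124 and 58. In the Efna4 span the strongest was the Efna3 intron site shown above, and the second, in an exon of Zbtb7b, a zinc finger factor gene of T cell development, had 90 and 66.

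Efna2, which encodes the other graded tectal ligand, had the strongest sites of the family around it. The site 19.5 kb upstream, shown above, had signals of 136 in replicate 1 and 97 in replicate 2, at a mean percentile of 99.8 within the lists. Its nearest TSS was that of Cirbp, a cold-inducible RNA-binding protein, at 7838 bp. Sites in Midn 30.0 and 30.7 kb upstream had 145 and 86, and 132 and 80. Of 31 shared sites, 5 had Efna2 itself as the nearest TSS. These 5 comprised 1 weak site in intron 1, with 29 and 20, and 4 downstream of the gene, of which those at 11.2 and 20.2 kb from the TSS had 98 and 62, and 107 and 42.

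Efnb3, which encodes the ephrin-B of axon midline guidance, had 20 shared sites, of which 3 had its own TSS nearest. These had signals of 113 and 36 at 1.4 kb upstream, 39 and 27 at 0.9 kb upstream, and 68 and 55 at 2.4 kb inside intron 1. The strongest of its span, 128 and 78, lay in an intron of Trp53, 1095 bp from a TSS of that gene. A site 7.0 kb downstream of the Efnb3 TSS, between Efnb3 and Dnah2, had 124 and 60. The third in rank, nearest to Fxr2, had 97 and 54. Across the family, 38 shared sites lay inside ephrin gene bodies, and 31 of them were in intron 1. Of these, 12 lay in the very long intron 1 of Efna5, and the count was not set against intron length or other genes.

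Hotspots covered more of the spans of the gene-dense loci than of the others. In the Efna2 span they covered 15.99% in replicate 1 and 26.9% in replicate 2, and in those of Efna1, Efna3 and Efna4 from 12.8% to 14.7% and from 21.8% to 23.7%. The Efnb3 span had 9.11% and 13.9%. Those of Efna5 (4.83% and 5.15%), Efnb1 (4.83% and 4.999%) and Efnb2 (5.48% and 5.23%) lay above the median span of all genes in replicate 1, 4.02%, and below that in replicate 2, 6.51%. In each replicate these 3 spans had the lowest shares of the family, and replicate 2 covered more than replicate 1 at all genes except Efnb2.

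**Figure D5:**
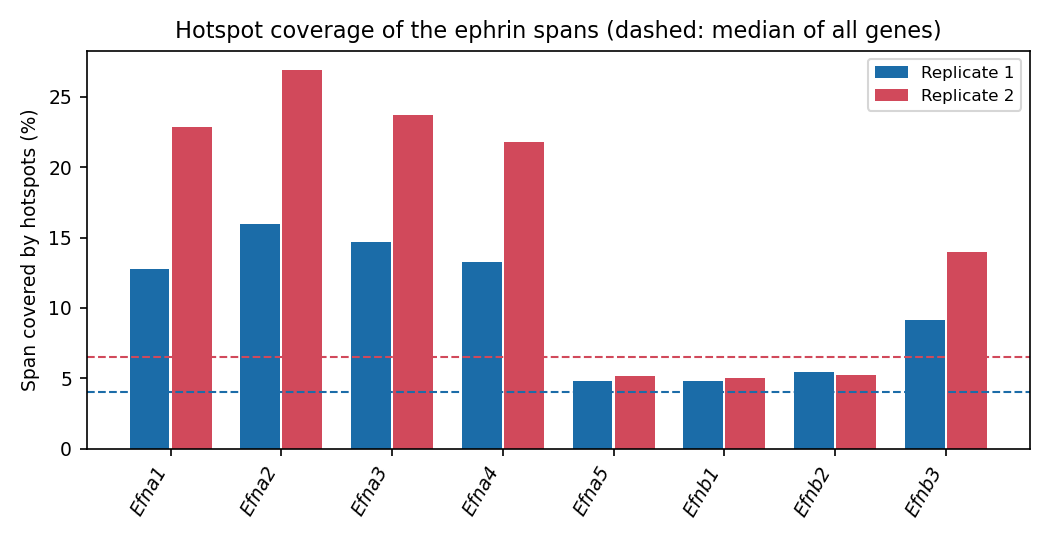
Percentage of each ephrin span covered by deposited hotspots in replicate 1 (blue) and replicate 2 (red). Dashed lines are the medians over the spans of all protein-coding genes, 4.02% and 6.51%; the bars of Efna5, Efnb1 and Efnb2 lie between these lines.

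Short sequence words were counted in 150 bp around the midpoint of the 138 sites, on both strands, beside the same count in all 72670 shared sites outside promoters. TAATTA, the homeodomain core, was in 4 sites (2.90%), against 3.20% of all sites. TAATCC, bound by OTX factors, was in 6 (4.35% against 4.60%), and the E-box CAGCTG in 19 (13.8% against 14.1%). CATTGT, bound by SOX factors, was in 7 (5.07% against 9.22%). GGGCGG was in 30 (21.7% against 9.88%), and the median GC content of the windows was 56.3% against 51.3%. Within these 150 bp windows, the GC-box letters were in 5 of 10 sites around Efnb1, 10 of 31 around Efna2 and 9 of 30 around Efna1. They were in 9 of 33 around Efna3, 8 of 28 around Efna4, 3 of 20 around Efnb3 and 1 of 21 around Efna5. Around Efnb2 they were in 0 of 20, and 1 Efnb2 site printed below holds them outside the window. The CTCF-like letters were in 9 sites (6.52% against 8.32%), and the NFI palindrome in 0 of 138, against 0.0413% of all sites.

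No site around Efna1, Efna2, Efna3, Efna4 or Efnb3 held TAATTA in its central 150 bp. The 4 sites with it there (2.90%, against 3.20% of all sites) lay around Efnb2, Efna5 and Efnb1. The first is the Efnb1 site 63.2 kb downstream shown above. The other three are given here for the place of these letters, with the same capitals.
Efna5 intron 1, chr17:62870616-62870765, minus strand: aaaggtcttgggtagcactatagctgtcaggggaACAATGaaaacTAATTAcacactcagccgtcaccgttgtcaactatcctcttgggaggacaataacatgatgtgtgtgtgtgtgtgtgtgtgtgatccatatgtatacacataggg
Efnb2 intron 1, chr8:8658116-8658305, minus strand: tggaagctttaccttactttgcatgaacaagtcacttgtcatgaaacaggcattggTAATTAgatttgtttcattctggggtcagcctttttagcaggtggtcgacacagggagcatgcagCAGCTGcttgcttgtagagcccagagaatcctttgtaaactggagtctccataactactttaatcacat
Efnb2 intron 1, chr8:8660196-8660445, minus strand: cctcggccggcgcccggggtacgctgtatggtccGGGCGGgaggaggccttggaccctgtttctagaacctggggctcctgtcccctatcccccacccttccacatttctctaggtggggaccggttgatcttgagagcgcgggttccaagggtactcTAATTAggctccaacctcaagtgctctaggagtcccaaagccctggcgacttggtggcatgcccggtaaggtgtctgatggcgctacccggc
The Efna5 site, 10.5 kb inside the gene, had signals of 53 in replicate 1 and 23 in replicate 2. The Efnb2 sites had 50 and 32 at 3.0 kb and 56 and 48 at 0.9 kb. None of these 3 was among the strongest 3 of its span.

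A TSS peak in both replicates was found at 8 of 8 ephrin genes and at 12 of 14 genes of their binding partners, the Eph receptors, against 65.5% of all genes. Among the GC- and CpG-rich genes described above the share was 98.6%, and the receptors had a median GC content of 59.8%. Epha8 had a TSS peak in replicate 2 only, with a signal of 32, and Epha10 in replicate 1 only, with 46. By mean TSS percentile the ephrins ran from 33.1 at Efna1 to 90.3 at Efnb2, and the receptors from 14.8 at Epha1 to 97.1 at Ephb3. The strongest receptor promoters were those of Ephb3, with 143 in replicate 1 and 93 in replicate 2, and Epha7, with 137 and 78. Ephb2 and Epha2 had the most shared sites outside promoters in their spans, 35 and 31. The median count was 24.5 for the ephrins, 17.5 for the receptors and 9 for all genes. The ephrin median counts the Efna1, Efna3 and Efna4 cluster repeatedly, since 33 of its 36 sites lay in more than 1 span. These spans also hold 15 to 17 other genes, against a median of 4 over all genes.

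All 17 genes of ephrin signalling partners, among them adaptors, GTPase regulators, kinases and the ephrin-cleaving protease Adam10, had a TSS peak in both replicates. The strongest were Rasa1, a Ras GTPase activating protein, with 136 and 98, and Nck1, an adaptor, with 136 and 95. All 13 tectal map genes outside the family also had one. The share was 65.5% of all genes, and 98.6% of the GC- and CpG-rich genes described above, while the lists had median GC contents of 67.1% (partners) and 59.8% (tectal map). Tle4, a Groucho corepressor, led with 142 and 93, followed by Neo1, a receptor of Rgma, with 129 and 95. En1 had 104 in replicate 1 and 58 in replicate 2, and En2 had 111 and 82, at mean percentiles of 37.7 and 62.7. The median counts of shared sites outside promoters were 18 for the partners and 25 for the tectal map genes.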

How the data were processed

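Per the deposited file records, peaks and hotspots were each derived on build mm10 from the alignments of a single replicate. The sources used here do not name the aligner, the peak caller or their settings. The deposited signal of a peak is a whole number without stated normalization. The q-value of each deposited hotspot is on a −log10 scale with a ceiling of 100. Read depth is unknown, so no counting interval is given.

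Peaks and hotspots of chromosomes 1 to 19 and X entered the tables, with repeated coordinates collapsed. The annotation was GENCODE vM21 basic, protein-coding transcripts. Sequences came from RefSeq and GRCm38.p6, the assembly of mm10. A TSS window reached 500 bp either way, spans 100 kb on either side, and percentiles were mid-ranks within a list. Python 3.11.15, numpy 2.4.6 and pysam 0.24.0 were used, and the computations were tested on simulated peaks. Alternatives were other windows, spans, overlaps and peak strengths, and each replicate alone.

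The members and gene lists were chosen with earlier results of these data known. By rule, the sites named were the 3 of highest mean percentile in each span and each replicate's strongest peak that the other replicate's peaks did not overlap. Among the other lists, the genes named were the 2 of highest mean TSS percentile and the 2 receptors with the most sites. Other sites and genes were named after their values were seen. A site and a gene that the rules name are not reported here. Per the labels, the replicates are biological and their sets of sequencing instruments differed, so instrument and replicate cannot be told apart.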

Additional observations from a re-analysis of the deposited data

How the results depend on the processing

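All 8 ephrin genes kept a TSS peak in both replicates with a 1000 bp window, with the peaks at or above the median signal, with hotspots and with all transcripts, and 6 did with a 150 bp window. The receptor count stayed between 12 and 13 of 14 in all alternatives run. Without replicate 1 or replicate 2, the counts of genes with a TSS peak were 8 of 8 and 13 of 14. The count of shared sites outside promoters, 138, was 135 with the stronger peaks, 109 with 50% reciprocal overlap, 107 with 50 kb flanks and 83 beyond 2500 bp from every TSS. Without replicate 1 or replicate 2 it becomes a count of the sites of 1 replicate, 415 and 288, since no sharing is then required. Efna3 had the most shared sites with 50% overlap and with the stronger peaks. Efna2 led with 50 kb flanks (24, Efna3 16) and beyond 2500 bp (19, Efna3 18). In replicate 1 alone Efna5 led (81, Efna3 47), and in replicate 2 alone Efna2 (107, Efna3 80). Hotspot coverage, as a mean of the replicates, was higher with 50 kb flanks at Efna2 (30.4% against 21.5%), Efnb3 (16.4% against 11.5%), Efnb2 (8.63% against 5.35%), Efnb1 (5.73% against 4.91%) and Efna5 (5.47% against 4.99%). It differed by less than the spread between replicates at Efna1, Efna3 and Efna4. Over single replicates it ranged from 4.83% at Efnb1 to 26.9% at Efna2. TSS percentiles with a 1000 bp window moved by less than the replicate spread at each gene. Without replicate 1 or replicate 2 they ranged from 23.3 at Efna1 to 98.2 at Efnb2. No paired analysis was possible because there is only 1 group. Unknown depth limits every statement on sites seen in 1 replicate.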

Other observations

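Some strong peaks of the ephrin spans had no overlapping peak in the other replicate. In Efna5 and at the promoters of Cks1b and Stard8 they lay beside a peak of the other replicate. The replicate 2 peaks at Efnb2 and Gamt and the replicate 1 peak at Trp53 lay beside shared sites. Those sites had signals of 93 and 72, 115 and 68, and 128 and 78. Near the replicate 1 peaks at Efna4 and Efnb2 lay replicate 2 peaks with signals of 64 and 17. A lack of overlap at any of these places does not show that the replicates differed in openness. At the Efna4 TSS, a replicate 1 peak with a signal of 93 had no overlapping peak in replicate 2. In the Efna3 and Efna4 spans, the promoter of Cks1b, a cell cycle gene, held a peak of 133 in replicate 1 and one of 77 in replicate 2 that did not overlap. In Efna5, replicate 1 had a peak with a signal of 71 at chr17:62880116-62880265, 954 bp from the nearest TSS. Replicate 2 had one of 56 beside it at chr17:62879956-62880105, at 1114 bp, and these peaks did not overlap. At Efnb2, a replicate 2 peak 548 bp from the TSS, with a signal of 69, had no overlapping peak in replicate 1. A replicate 1 peak 4012 bp from the TSS, with 57, had none in replicate 2. The other such peaks lay near promoters of Ndufs7 (103, replicate 1) and Gamt (59, replicate 2) in the Efna2 span, Stard8 (94 in replicate 1, 39 in replicate 2) in the Efnb1 span, Trp53 (100 in replicate 1, 33 in replicate 2) in the Efnb3 span and Scamp3 (58, replicate 2) in the Efna1 span.

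Efna3, which had the most shared sites outside promoters under the settings of the report, though not under all alternatives, was compared with all other genes by 3 percentiles, those of TSS signal in each of the 2 replicates and that of the site count. The nearest were Prdx2, a peroxide-reducing enzyme, and Gm49661, both with TSS signals of 96 and 71 and 29 sites, at a distance of 2.42 percentile points. The values of Prdx2 and Gm49661 were identical, and whether these 2 genes share the same peaks and sites was not examined. With 2 replicates this likeness is a description of these lists only.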
